A study of Drosophila melanogaster with 8 samples.

Results

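Wandering larvae of 3 mutant stocks of Drosophila melanogaster were set together against wild type larvae, to ask what the stocks have in common apart from it. WT was Oregon R+, and the other groups were labelled w1118; Sp/CyO';hsromega66, then w1118; Sp/CyO';hsp90GFP, and w1118; Sp/CyO';hsp90GFPhsromega66 for the recombinant. Each genotype had 2 libraries, each from 5 pooled whole larvae late in the last larval instar, and the authors' table gives 1 FPKM (fragments mapped to a gene per kilobase of its length, relative to library size) per gene and genotype. No values per library were used, so levels carry no replicate spread, and the depth behind the levels is unknown. For each row with a single gene symbol, log2(FPKM + 1) was averaged over the 3 mutant groups and the WT value was subtracted, which gives the mean difference. The range among the mutant groups is the highest minus the lowest of their values on that scale. A row was kept where any genotype reached 5 FPKM, which left 8340 of 15267 rows with a single symbol and of 15904 rows in all.

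The mutant stocks share, by their labels, the white-eye allele w1118 on the X chromosome and a second chromosome pair of Sp, a dominant bristle marker, over CyO', a balancer. A balancer carries multiple inversions that suppress recombination, so it keeps its own sequence variants from generation to generation, and the label of Oregon R+ names neither marker. The allele hsromega66 leaves almost no RNA of hsromega, a non-coding transcript that organises the nuclear omega speckles, and Hsp90GFP over-expresses Hsp83, the fly Hsp90. The labels place both on the third chromosome. A stock differs from Oregon R+ by its named allele, by the shared markers and by any other variant fixed in it, and these cannot be told apart by one comparison with WT.

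Hsromega was at 236 FPKM in WT, at 0.767 in hsromega66, at 273 in Hsp90GFP and at 77.9 in the recombinant-labelled libraries, which goes against that label, so they are called by it throughout. Hsp83 was at 371, 427, 1616 and 968 FPKM in the same order. In the tissue markers, the summed level of 5 salivary glue genes was 45756 FPKM in WT, at 50240 in hsromega66, at 28143 in Hsp90GFP and at 27.4 in the recombinant-labelled libraries, and that of 5 sperm tail and testis genes was 237, 211, 166 and 9.61 FPKM. The 5 muscle genes summed to 4757, 2616, 5549 and 10695 FPKM, and the 5 midgut genes to 2231, 5052, 2561 and 6040 FPKM. In whole larvae, fewer cells of a type and less RNA per cell cannot be told apart, and the part of these shifts in the results below was not tested.

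WT lay about as far from each of the 2 single mutant stocks as those stocks lay from each other. The median absolute difference over the kept rows was 0.202 on the log2(FPKM + 1) scale between WT and hsromega66, 0.215 between WT and Hsp90GFP, and 0.227 between hsromega66 and Hsp90GFP. The libraries labelled as the recombinant were farther from all of them, at 0.581 from WT, 0.540 from hsromega66 and 0.545 from Hsp90GFP. The share of rows past 1 log2 unit was 8.81%, 7.91% and 8.37% for the first set of pairs and 32.4%, 30.0% and 29.1% for the second. At the far end, the 95th percentile of the absolute difference was 1.47 and 1.40 for the WT pairs with hsromega66 and Hsp90GFP, against 1.39 between those stocks. Calls at a q under 0.05 in the authors' deposited table numbered 135 and 120 for the WT pairs and 99 between those stocks. By a q under 0.05 in the authors' deposited table, 103 genes (1.25% of the tested rows) were higher and 32 (0.387%) lower in hsromega66 than in WT, 73 (0.883%) higher and 47 (0.569%) lower in Hsp90GFP, and 542 (6.54%) higher and 313 (3.78%) lower in the recombinant-labelled libraries.

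**Figure D1:**
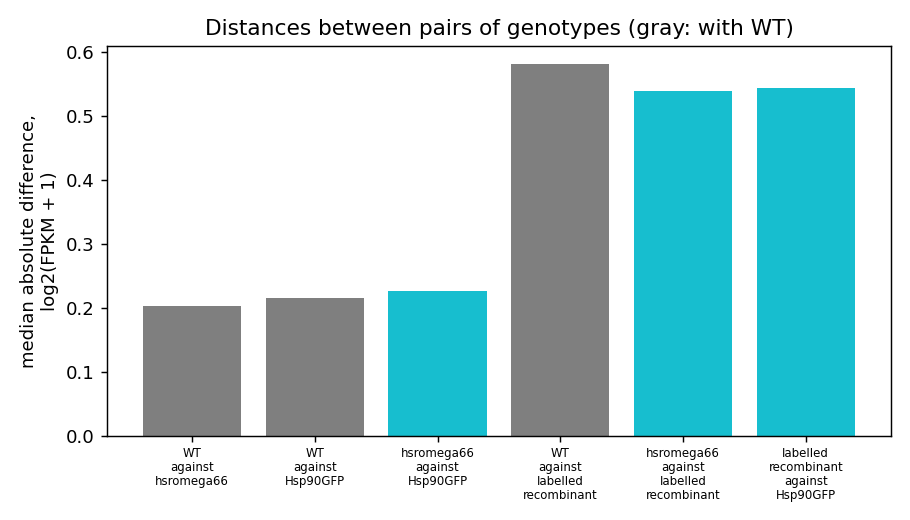
Median absolute difference in log2(FPKM + 1) over the 8340 kept rows for each of the 6 pairs of genotypes, with gray bars for pairs that include WT. The 3 pairs among WT, hsromega66 and Hsp90GFP stand at 0.202 to 0.227, and the 3 pairs with the recombinant-labelled libraries at 0.540 to 0.581.

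The differences from WT that all mutant stocks had in common were few. A row was called shared lower or shared higher when its mean difference was at least 1 log2 unit in size and the range among the mutant groups was smaller than that. Of 1320 rows with a mean difference of that size, the mutant groups were farther apart than the difference itself in 1074. Shared lower rows numbered 67, 0.803% of the kept rows, and shared higher rows 179, or 2.15%. Small RNA genes, whose FPKM is unreliable in libraries of this kind because of their short length, made up 22 of the lower and 26 of the higher rows, and the remaining 45 and 153 rows are the ones described below. The rule for keeping rows did not treat both directions alike. A row low in WT could be kept through any mutant group, but a row low in every mutant group only through WT. Of the kept rows, 1006 were under the FPKM floor in WT, and 161 reached it in WT only. With no filter on low values, shared lower rows numbered 111 and shared higher rows 189, so those counts lay closer together. The median mean difference over all kept rows was -0.00415 and the median range 0.703. A mean above WT was found in 4129 of the kept rows (49.5%). Every mutant group lay above WT in 1872 rows (22.4%) and below it in 1986 (23.8%).

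Among the shared higher rows other than small RNA genes, the recombinant-labelled libraries were the farthest from WT in 118 of 153, whereas among the 45 lower ones Hsp90GFP was the farthest in 21, the recombinant-labelled libraries in 16 and hsromega66 in 8. Without the recombinant-labelled libraries, the shared rows numbered 112 lower and 285 higher. A test was made across all rows with a value in every group: the log2 ratio of the mutant mean to WT over its error, where the error of each genotype was solved from the authors' pairwise statistics (z test, Benjamini-Hochberg adjustment over 8114 rows, called below the contrast test). This is a normal approximation over 2 libraries a group with errors that Cuffdiff modelled across genes, and no exact test can be made without values per library. It called 40 rows lower (0.493%) and 75 higher (0.924%), and 578 rows had an unadjusted p under 0.05. Of those, 9 of the lower and 32 of the higher calls were also shared rows. Without the recombinant-labelled libraries 18 rows were called lower and 11 higher, and of the shared calls 8 of 9 lower and 9 of 32 higher were still called. The median error of the contrast was 0.730 log2 units, and no gene other than a small RNA was called below a size of 2.17. The smallest detectable difference was not measured, so a row that was not called may still differ from WT.

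**Figure D2:**
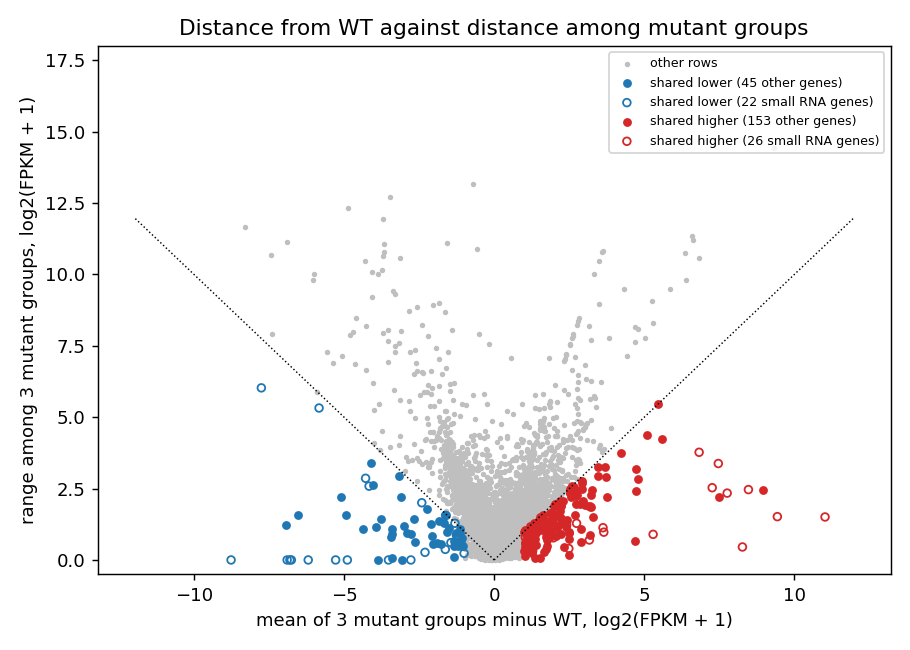
Mean of the 3 mutant groups minus WT against the range among the mutant groups, both in log2(FPKM + 1), for each kept row, with dotted lines where both are equal in size. Shared lower rows are blue (45 filled, 22 small RNA genes open), shared higher rows red (153 filled, 26 open), and most rows far from 0 lie above the lines.

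The lowest shared differences among protein-coding genes were in the Bomanins, short secreted peptides that the Toll pathway induces and that defend flies against fungi and some bacteria. A stretch of 8 neighbouring kept rows on 2R (dm6 18381393 to 18389443) was lower in every mutant stock, and no other run of lower rows was longer than 2. IM2 (now BomS2) was at 824 FPKM in WT, at 12.4 in hsromega66, at 3.52 in Hsp90GFP and at 11.0 in the recombinant-labelled libraries. All mutant levels lay far below WT and within 1.57 log2(FPKM + 1) units of each other. The contrast test put IM2 at a log2 ratio of -6.72 ± 0.94 (SE), 105-fold below WT (adjusted p = 1.46e-09, z test on the authors' errors), and the q against WT in the authors' deposited table was 0.00144 for hsromega66, 0.00372 for Hsp90GFP and 0.00144 for the recombinant-labelled libraries.

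IM3 (BomS3) was at 767 FPKM in WT and at 67.9, 29.7 and 57.0 in hsromega66, Hsp90GFP and the recombinant-labelled libraries, a log2 ratio of -3.98 ± 0.91 (SE, adjusted p = 0.00288, z test on the authors' errors). IM1 (BomS1) was at 248 FPKM in WT and at 14.02, 3.47 and 45.8 in the mutant groups (log2 ratio -4.25 ± 0.94, adjusted p = 0.00164, z test on the authors' errors). The level in the recombinant-labelled libraries was the nearest to WT of the 3 and had a q of 0.0601 in the authors' deposited table. CG16836 (BomT2) was at 103 FPKM in WT against 3.61, 6.63 and 2.61 (log2 ratio -4.70 ± 0.92, adjusted p = 0.000167, z test on the authors' errors). IM23 (BomBc1) was at 163 FPKM in WT and 1.34 in hsromega66, and was listed at 0 in the other two. The short CG43202 (BomT1) was at 5.10 FPKM in WT and at 0.212, 0 and 1.40 in the mutants, and neither gene has a contrast value, since a group was listed at 0.

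CG15067 (BomBc2) and CG18107 (BomS4) share a locus in the deposited rows, so the authors' counting may have split their reads, and their levels are uncertain. CG15067 was at 91.7 FPKM in WT against 4.06, 0.699 and 2.21, and CG18107 at 15.5 FPKM against 0.508, 3.595 and 0. The contrast test called CG15067 (adjusted p = 1.82e-05, z test on the authors' errors), while only the recombinant-labelled libraries had a q under the threshold (0.0144) in the authors' deposited table. CG15065 (BomS5), the next row along the arm, was also below WT in every mutant group, at 27.1, 6.39, 2.70 and 16.9 FPKM, but with a range of 2.28 against a mean difference of -1.83 it was not shared, and it was not called (adjusted p = 0.913, z test on the authors' errors). After it came CG15068 (BomS6) at 28.4, 36.6, 18.4 and 19.8 FPKM. On the other side, sbb was at 10.3, 6.41, 9.06 and 6.75 FPKM. These 3 neighbours were chosen for their place, after the values were seen. The contrast calls of IM1, IM2, IM3, CG15067 and CG16836 all held without the recombinant-labelled libraries. Bomanins are made mainly in the fat body, whose 4 markers summed to 32490 FPKM in WT and to 26431, 28665 and 16727 in the mutant groups. The markers did not move together in the recombinant-labelled libraries. Lsp2 was at 178 FPKM there against 10998 in WT, and Fbp1 at 2.49 against 5996. Lsp1alpha was at 5287 FPKM against 6652, and Lsp1beta was above WT, at 11259 against 8845. The part of the amount of fat body RNA was not tested.

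**Figure D3:**
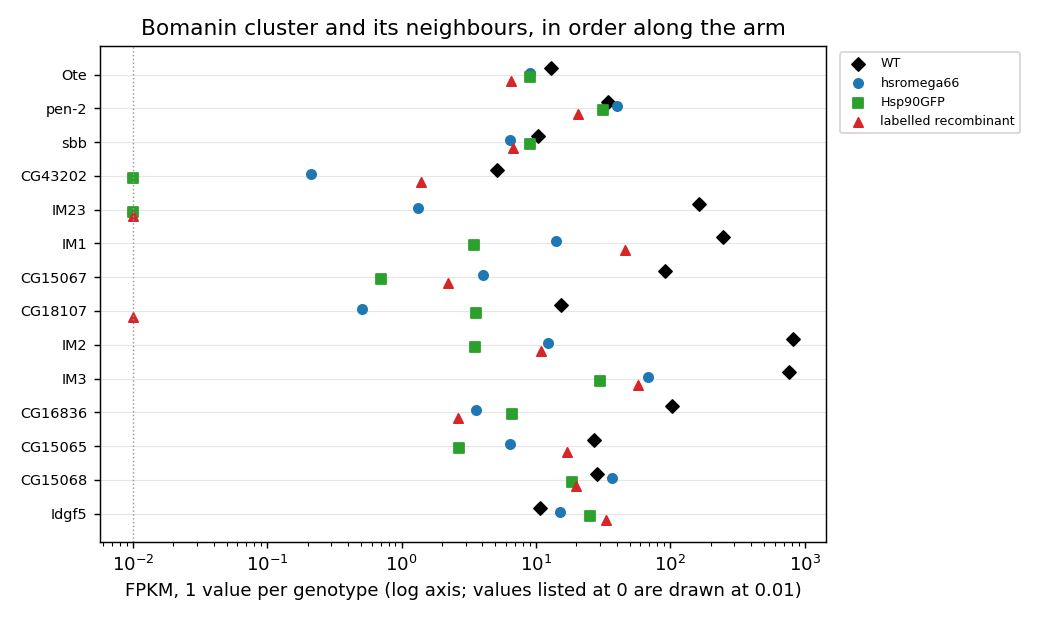
FPKM (log axis, values listed at 0 drawn at 0.01) of each kept gene from 3 rows before to 3 rows after the Bomanin stretch, in order along the arm, with 1 point per genotype. In the 8 rows from CG43202 to CG16836 the WT point is the highest, which the rule for shared lower rows fixes in advance, and the gap is wide. In CG15065 next to them, which is not a shared row, it is the highest by a smaller gap.

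Of the 15 kept members of a list of short immune peptides, 7 were shared lower (all kept rows 0.803%) and none shared higher. The median mean difference was -3.15, against -0.00415 for all kept rows. IM4 (Dso1) and IM14 (Dso2), encoded outside that stretch, were called by the contrast test but the mutant groups were too far apart to be shared. IM4 was at 485 FPKM in WT against 26.2, 6.87 and 133 (adjusted p = 0.00163, z test on the authors' errors), and IM14 at 577 FPKM against 151, 9.51 and 170 (adjusted p = 0.0339, z test on the authors' errors). The heterogeneity among the mutant stocks was called for both (adjusted p = 0.00704 for IM4 and 0.00620 for IM14, chi-square test of the mutant log2 levels). Drs, which encodes the antifungal drosomycin, was at 1311 FPKM in WT and 390, 672 and 846 in the mutants and was not called (adjusted p = 1.000, z test on the authors' errors). Drsl5, a drosomycin-like gene, was at 903 and 629 FPKM in WT and hsromega66, but 3.43 and 5.88 in the other two.

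The antibacterial peptides of the Imd pathway had higher means in the mutants. All 12 kept members of that list had a mean above WT (all kept rows 49.5%), with a median mean difference of 2.54. In 6 of them every mutant group lay above WT (all kept rows 22.4%), and yet only AttD was shared higher (all kept rows 2.15%). AttD encodes an attacin, an antibacterial peptide, and was at 0.783 FPKM in WT, at 39.8 in hsromega66, at 7.89 in Hsp90GFP and at 38.6 in the recombinant-labelled libraries (log2 ratio 4.87 ± 1.11, adjusted p = 0.00288, z test on the authors' errors). The summed level of the list was 103 FPKM in WT, at 658 in hsromega66, at 93.1 in Hsp90GFP and at 4381 in the recombinant-labelled libraries, so Hsp90GFP lay near WT.

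Single genes were lower in all mutant stocks as well. CG13560, an uncharacterised gene on 2R (23747560 to 23748477), was at 125 FPKM in WT, at 0.991 in hsromega66, at 8.11 in Hsp90GFP and at 1.80 in the recombinant-labelled libraries. Its log2 ratio was -5.68 ± 0.77 (SE, adjusted p = 4.47e-10, z test on the authors' errors), 51.4-fold below WT, and the q was 0.00144 in each of the 3 comparisons in the authors' deposited table. CG6788 on the X (17888177 to 17889404) was at 25.2 FPKM in WT against 2.58, 1.198 and 0.894 (log2 ratio -4.17 ± 0.86, adjusted p = 0.000438, z test on the authors' errors), with a q of 0.00144 in each of the 3 comparisons in the authors' deposited table. CG4757 was at 93.6 FPKM in WT and at 22.0, 2.00 and 16.0 in the mutants (adjusted p = 0.0154, z test on the authors' errors).

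mthl8, a methuselah-like G protein-coupled receptor gene near the tip of 3L (22428 to 26308), was at 7.37 FPKM in WT, while every mutant group was listed at 0, with a q of 0.00144 in each comparison in the authors' deposited table. Of the 11 kept methuselah-like receptors it was the only one shared lower (all kept rows 0.803%), and the median mean difference of the list was -0.249. The next kept row along the arm is Lsp1gamma, a larval serum storage protein gene, which was at 12858 FPKM in WT, at 2.099 in hsromega66, at 1.62 in Hsp90GFP and at 8541 in the recombinant-labelled libraries. The loss of mthl8 was thus in all mutant stocks, and that of Lsp1gamma in only 2 of them. Next to each other on the X, CG32762 was at 9.79 FPKM in WT and at 0.0507, 0 and 0.0313 in the mutants, and CG4151 at 10.3 FPKM against 0.216, 2.30 and 0.387. CG31775 on 2L was at 13.7 FPKM in WT against 0 in every mutant group, but its q was 0.504 in each comparison in the authors' deposited table.

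Of the Eig71E genes, ecdysone-induced genes of the late larval salivary gland, 5 of the 7 kept were shared lower (all kept rows 0.803%). None of the 6 kept Sgs glue genes was, although 4 of them were below WT in every mutant group (all kept rows 23.8%). Eig71Ea was at 48.2 FPKM in WT against 9.05, 4.37 and 6.04, and Eig71Eb at 20.5 FPKM against 1.37, 0.397 and 1.45. Eig71Eb was called by the contrast test (log2 ratio -4.47 ± 1.13, adjusted p = 0.00963, z test on the authors' errors) and lost that call without the recombinant-labelled libraries (adjusted p = 0.0805, z test on the authors' errors). Eig71Ed was at 19.5 FPKM in WT and 0, 0.235 and 1.67 in the mutants. Eig71Ee, which was not shared, was at 1370 FPKM in WT against 1139, 1170 and 0.727. Of the 16 kept members of the list of salivary glue and Eig71E genes, 5 were shared lower (all kept rows 0.803%) and none shared higher. A mean above WT was found in 3 (all kept rows 49.5%), none of which was an Eig71E or Sgs gene. The median mean difference was -3.33. The glue gene Sgs3 was at 1121 FPKM in WT against 412, 342 and 0.419, and Sgs7 at 33244 FPKM against 39513, 20821 and 21.2, both lowest by far in the recombinant-labelled libraries. The summed glue markers given above, which include Sgs3 and Sgs7, were also lowest in the recombinant-labelled libraries. In hsromega66 that sum was above WT, at 50240 against 45756 FPKM, while Sgs3 and Eig71Ea were below WT there. The part of the amount of salivary gland RNA in the Eig71E values was not tested.

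**Figure D4:**
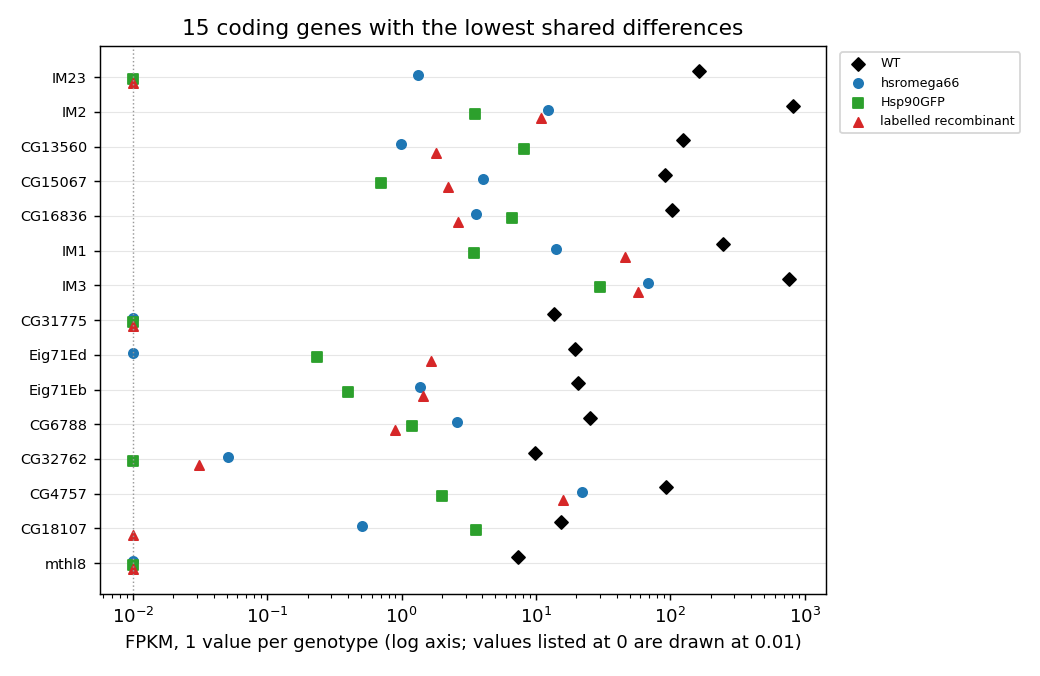
FPKM (log axis, values listed at 0 drawn at 0.01) in the 4 genotypes for the 15 protein-coding genes with the lowest shared mean differences, sorted by that difference. In every gene the WT point lies to the right of all 3 mutant points, which the rule for shared lower rows fixes in advance.

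Among the shared higher rows, ninaD was the most strongly called. ninaD encodes a scavenger receptor that takes up carotenoids in the gut. It was at 0.682 FPKM in WT, at 84.2 in hsromega66, at 16.9 in Hsp90GFP and at 338 in the recombinant-labelled libraries, and all mutant levels lay above WT. The contrast test gave a log2 ratio of 6.84 ± 0.88 (SE, adjusted p = 2.43e-11, z test on the authors' errors), 115-fold above WT, and the call held without the recombinant-labelled libraries (adjusted p = 1.70e-07, z test on the authors' errors). The mutant stocks differed among themselves (adjusted p = 5.47e-05, chi-square test), so the size of the rise was not common to them. Of 8 kept scavenger receptor genes it was the only one shared higher (all kept rows 2.15%).

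Other genes of the gut had higher means in the mutants than in WT, and fewer were higher in every stock. Of 29 kept genes on a list of gut carbohydrate and lipid enzymes, 24 had a mean above WT against 49.5% of all kept rows (median mean difference 1.60). Every mutant group lay above WT in 20 (all kept rows 22.4%), and 6 were shared higher (all kept rows 2.15%). The contrast test called 2 higher (0.924% of all tested rows). Amy-d, an alpha-amylase that digests starch, was at 9.13 FPKM in WT, at 171 in hsromega66, at 34.2 in Hsp90GFP and at 53.0 in the recombinant-labelled libraries (log2 ratio 2.89 ± 0.69, adjusted p = 0.00540, z test on the authors' errors). It was called also without the recombinant-labelled libraries (adjusted p = 0.0180, z test on the authors' errors). The lysozymes LysB, LysC, LysD and LysE, enzymes that cut bacterial cell walls in the gut, share 1 locus with 9 deposited rows, so reads between them cannot be assigned with certainty. All 4 were shared higher rows, side by side on 3L. A count of shared rows that holds them does not rest on separate genes. LysD was at 5.49 FPKM in WT against 3460, 1343 and 7363, and LysB at 9.52 FPKM against 2234, 795 and 3682. Neither was called (adjusted p = 1.000 for both, z test on the authors' errors), with an error of the log2 ratio of 7.29 for LysD and 4.73 for LysB.

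Of 28 kept serine proteases of the gut, 25 had a mean above WT against 49.5% of all kept rows (median mean difference 0.762). Every mutant group lay above WT in 13 (all kept rows 22.4%), and 3 were shared higher (all kept rows 2.15%). The contrast test called 3 higher (0.924% of all tested rows). betaTry, a trypsin, was at 97.6 FPKM in WT against 344, 430 and 651 (log2 ratio 2.23 ± 0.63, adjusted p = 0.0377, z test on the authors' errors), and without the recombinant-labelled libraries it lost its call (adjusted p = 0.497, z test on the authors' errors). alphaTry was at 91.2 FPKM in WT and at 191, 236 and 183 in the mutants, a difference not called (adjusted p = 0.839, z test on the authors' errors). Jon99Fii, a Jonah-type chymotrypsin-like protease, was at 343 FPKM in WT and at 1218, 1252 and 967, also not called (adjusted p = 0.304, z test on the authors' errors). The summed midgut markers stood beside these values at 2231 FPKM in WT and 5052, 2561 and 6040 in the mutant groups. Most of that sum was Jon65Aiv, at 2018 FPKM in WT and 4394, 1858 and 4688 in the mutants. In Hsp90GFP Jon65Aiv was thus below WT, while betaTry and alphaTry were above it. Amy-p was at 32.3 FPKM there against 19.0 in WT, and Mal-A1 at 5.53 against 5.07. The part of the amount of gut RNA was not tested.

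Some genes for metal binding and for breaking down foreign compounds were higher in all mutants. MtnB, a metallothionein that binds copper and cadmium, was at 19.3 FPKM in WT, at 160 in hsromega66, at 116 in Hsp90GFP and at 181 in the recombinant-labelled libraries. These mutant levels lay within a range of 0.644 log2 units. The contrast test gave a log2 ratio of 2.95 ± 0.76 (SE, adjusted p = 0.0120, z test on the authors' errors), 7.74-fold above WT; without the recombinant-labelled libraries it was not called (adjusted p = 0.0838, z test on the authors' errors). The q of MtnB was 0.00144, 0.00472 and 0.00144 for hsromega66, Hsp90GFP and the recombinant-labelled libraries in the authors' deposited table.

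MtnD was at 60.7 FPKM in WT against 183, 179 and 364, and the neighbouring MtnE at 34.0 FPKM against 100, 119 and 373, neither of them called (adjusted p = 0.184 and 0.0984, z test on the authors' errors). The list of resistance genes that vary by strain, which includes these, had 14 kept genes and a median mean difference of 1.14. Of them, 4 were shared higher (all kept rows 2.15%) and 1 was called higher (0.924% of all tested rows). Among 47 kept cytochrome P450 genes, enzymes that oxidise drugs, hormones and toxins, the median mean difference was 0.523. A mean above WT was found in 38 of them (all kept rows 49.5%). Every mutant group lay above WT in 27 (all kept rows 22.4%), and 3 were shared higher (all kept rows 2.15%). Cyp28a5 was at 12.1 FPKM in WT and 57.9, 70.1 and 97.1 in the mutants (log2 ratio 2.59 ± 0.64, adjusted p = 0.00720, z test on the authors' errors; 0.103 without the recombinant-labelled libraries). Of 31 kept glutathione transferases, which join glutathione to toxic compounds, 4 were shared higher (all kept rows 2.15%). GstE6 was at 4.32 FPKM in WT against 16.0, 20.1 and 99.8 and was called (adjusted p = 0.0380, z test on the authors' errors; 1.000 without the recombinant-labelled libraries). GstD6 was at 1.97 FPKM in WT and at 7.76, 7.52 and 7.42 in the mutants, nearly equal there but not called (adjusted p = 0.671, z test on the authors' errors).

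Further genes outside these lists were shared higher and called by the contrast test. CG15829 (Acbp6), an acyl-CoA binding protein gene, was at 64.1 FPKM in WT against 321, 599 and 3063 (log2 ratio 3.71 ± 0.67, adjusted p = 1.82e-05, z test on the authors' errors; 0.0310 without the recombinant-labelled libraries). CG10073 was at 0.234 FPKM in WT against 6.67, 65.1 and 69.4 (adjusted p = 2.67e-08, z test on the authors' errors), and CG32284 at 10.3 FPKM against 126, 164 and 2622 (adjusted p = 3.83e-07, z test on the authors' errors). CG3397 was at 4.16 FPKM in WT and at 105, 130 and 12.6, the only one of these in which the recombinant-labelled libraries were the nearest to WT (adjusted p = 0.00505, z test on the authors' errors). CG1304 was at 0.187 FPKM in WT against 7.82, 9.71 and 116 (adjusted p = 0.00636, z test on the authors' errors; 0.205 without the recombinant-labelled libraries). Cht4, a chitinase that breaks down chitin, was at 1.11 FPKM against 10.8, 14.4 and 41.9 (adjusted p = 0.00312, z test on the authors' errors; 0.0805 without the recombinant-labelled libraries). Cht9 and CR44703 lie antisense to each other in 1 locus beside it and cannot be separated by these values.

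Neighbouring higher rows were shorter runs than the Bomanin stretch. On 3R (14560935 to 14567429) CG14850 (Jig), CG8087 and CG14852 were higher side by side. CG14850 was listed at 0 in WT and was at 42.9, 7.78 and 46.3 FPKM in the mutants, with a q of 0.00144 in each of the 3 comparisons in the authors' deposited table. CG8087 was at 10.03 FPKM in WT against 81.5, 69.2 and 518 (adjusted p = 0.00636, z test on the authors' errors; 0.452 without the recombinant-labelled libraries), and CG14852 at 0.361 FPKM against 27.9, 31.7 and 45.2, which was not called and shares its locus with another row, so its level is uncertain. Of the shared rows, 16 of 67 lower and 33 of 179 higher stood in runs of at least 2 neighbours. By arm, shared lower rows other than small RNA genes were 1.02% of the kept rows that are not small RNA genes on 2R, 0.699% on 3L, 0.495% on the X, 0.407% on 2L and 0.249% on 3R, while shared higher ones were between 1.40% on the X and 2.23% on 2R. Of the 17 such lower rows on 2R, 8 were the Bomanin stretch. None of the 69 kept rows on chromosome 4 was shared in either direction.

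**Figure D5:**
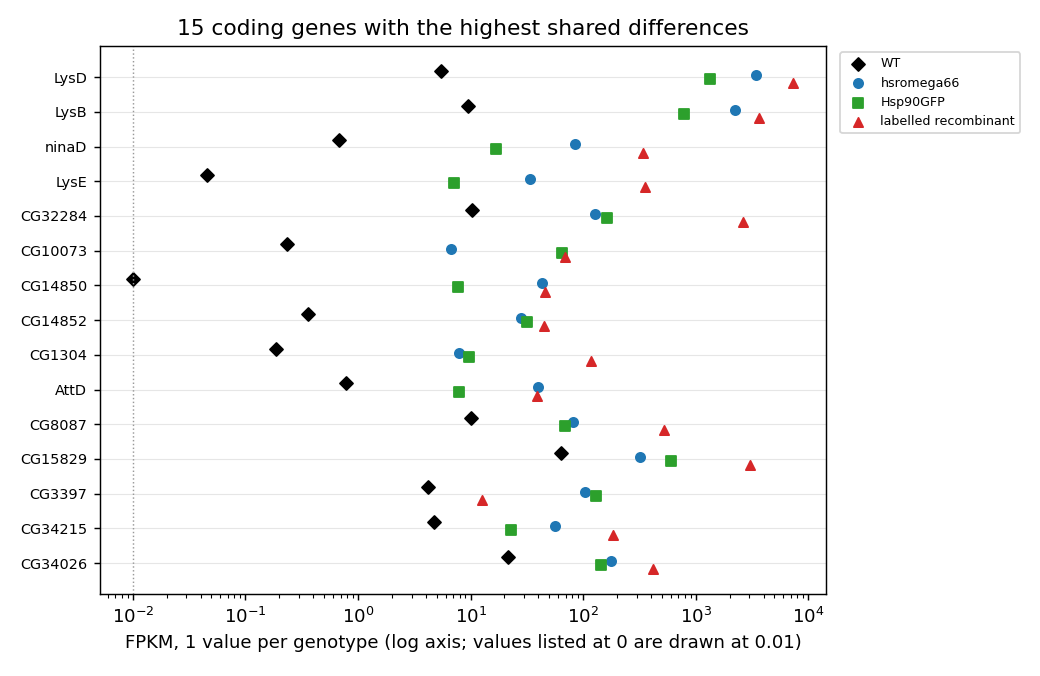
FPKM (log axis, values listed at 0 drawn at 0.01) in the 4 genotypes for the 15 protein-coding genes with the highest shared mean differences, sorted by that difference. In every gene the WT point lies to the left of all 3 mutant points, which the rule for shared higher rows fixes in advance. In most genes the recombinant-labelled libraries are the farthest from WT.

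Many contrast calls were of genes in which the mutant stocks differed in size or direction. Of the 75 higher calls 43 were not shared, of which 24 were past 1 log2 unit in all mutant stocks by unequal amounts and 14 in hsromega66 and the recombinant-labelled libraries. Of the 40 lower calls 31 were not shared. Of these, 7 were past 1 log2 unit in all mutant stocks. In 12 the loss was over 1 log2 unit in Hsp90GFP and the recombinant-labelled libraries but not in hsromega66. In 10 it was over 1 log2 unit in the recombinant-labelled libraries alone. ebony (e), a gene of cuticle tanning, was at 42.8 and 73.3 FPKM in WT and hsromega66 and at 0.562 and 0.925 in the other two, and black (b), another, at 27.4, 26.6, 3.63 and 1.38. Lsp1gamma was lost in hsromega66 and Hsp90GFP only, and the non-coding CR40469 in hsromega66 and the recombinant-labelled libraries only, at 3884, 19.3, 4742 and 26.9 FPKM. Fbp1, a fat body receptor for serum proteins, was at 5996, 3790 and 3496 FPKM in WT, hsromega66 and Hsp90GFP but 2.49 in the recombinant-labelled libraries. Over all tested rows, 465 (5.73%) differed among the mutant stocks by the heterogeneity test, against 30 of the 40 lower and 49 of the 75 higher contrast calls.

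The marker genes of the labelled chromosomes were few, and none was a shared row. The row that merges white with CG32795 was at 43.3 FPKM in WT, at 26.2 in hsromega66, at 26.1 in Hsp90GFP and at 36.5 in the recombinant-labelled libraries, and w itself was not measured on its own. Duox, which the CyO balancer marker Curly alters, was at 5.61, 6.66, 4.87 and 3.58 FPKM, and wg, in which Sp lies, at 5.48, 5.28, 3.32 and 5.31. pr and dp, marked on such balancers, differed from WT by mean differences of -0.08 and -0.09, and cn stayed under the 5 FPKM floor in every group. Of 6 kept genes of this kind, and of 13 kept eye pigment genes, none was shared in either direction. Over all kept rows 0.803% were shared lower and 2.15% shared higher, so a count of none among so few genes says little about them. At the edge of the rule, CG10214 (mean difference -1.05) and Arc1 (1.005) were just inside it, and mthl2 (-0.9999) and Oda (0.989) just outside.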

How the data were processed

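Total RNA of whole larvae was depleted of ribosomal RNA and sequenced as 50 bp paired reads, with each library run over 2 lanes, per the labels' protocols. Alignment and testing used the build dm6, TopHat with Bowtie, Cufflinks, and Cuffdiff 2.1.1, per the submitters' processing notes, which give no other version. The deposited tables compare the 4 groups in 6 pairs. Per the file headers, the authors' FPKM is 1 value per group. The deposited test statistic is a score, and the deposited p-value (at least 5e-05) and q-value are the authors' own. A call from these tables is a q under 0.05 with status OK; how many tests those q-values were adjusted over is unknown.

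Group means were taken on log2(FPKM + 1), which understates the change of low genes. The squared error of each pairwise log2 ratio was taken as the square of the ratio over the deposited statistic, and the 4 group variances were solved from the 6 pairs (median misfit 0.00127%). The contrast is the mean log2 FPKM of the mutant groups minus WT, tested with a z test on the authors' errors; the heterogeneity is a chi-square over the mutant groups. Of the kept rows, 226 have no contrast value, 178 of them with a group at 0. The p-values rest on errors that Cuffdiff modelled across genes for these libraries. They do not measure the observed spread of each gene between libraries, and the labels do not name separate cultures. The 3 comparisons with WT share the WT libraries. Small RNA rows, rows sharing a locus, and rows of any group under 1 FPKM were left out as alternatives chosen after seeing the data.

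Of the 29 gene lists (622 members, 559 with a row of their own), 432 members were kept. The members and lists were chosen with earlier results of these data known. Genes were named by rule: the 15 lowest and 15 highest shared coding rows, up to 15 contrast calls in each direction, the stock genes, up to 4 shared members of a list and runs of 3 or more rows, 86 in all. IM4, IM14, Drs, CG4151, CG15065, CG15068, sbb, Eig71Ee, e, b, CR40469, Sgs7, LysC, CR44703, Arc1, CG10214, mthl2 and Oda were named after their values were seen. Current symbols come from RefSeq on Release 6, in which 8230 of the kept symbols (98.7%) were matched. Scripts ran on scipy 1.17.1, pandas 2.3.3 and numpy 2.4.6 under Python 3.11.15, with plots by matplotlib 3.10.9.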

Additional observations from a re-analysis of the deposited data

Results flagged for a closer look

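In 28 of the 86 named genes the mutant stocks differed from one another in their distance to WT by the heterogeneity test (chi-square test on the mutant log2 levels, Benjamini-Hochberg adjusted p under 0.05). The values below are ranges among the mutant groups on the log2(FPKM + 1) scale. Some were shared rows, in which all mutants moved one way by unequal amounts. ninaD had a range of 4.25, CG10073 of 3.20, CG32284 of 4.36, CG15829 of 3.25, CG1304 of 3.73, CG8087 of 2.89, CG3397 of 3.27, Cpr47Eb of 2.78 and CG4757 of 2.94.

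In the rest the mutant groups were farther apart than their mean was from WT, or nearly so. With Hsp90GFP and the recombinant-labelled libraries low and hsromega66 nearer to WT, Drsl5 had a range of 7.15, CG7924 of 7.30, CG7906 of 7.66, CG34244 of 6.90 and CG2070 of 3.94. With the recombinant-labelled libraries lowest, Fbp1 had a range of 10.08, Sgs3 of 8.18 and Sgs1 of 4.51. With those libraries highest, Cpr47Eg had a range of 9.49, CG11350 of 8.95, Lcp65Ag3 of 7.77, CG13705 of 6.84, CG15533 of 4.81, CG9396 of 4.75, CG32564 of 4.42 and hgo of 3.91. Lsp1gamma had a range of 11.67, with hsromega66 and Hsp90GFP low. Hsromega had a range of 7.28, with hsromega66 lowest. CG43133 had a range of 7.14, with Hsp90GFP near WT and the other mutants high.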

How the results depend on the processing

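Among the 86 named genes, no called gene changed sign under the alternatives tried. The sign of the other called rows was not checked. Of the named genes that were not called, Duox went from a mean difference of -0.163 to 0.0206 without the recombinant-labelled libraries, and pr from -0.0763 to 0.0816 without Hsp90GFP. The 67 shared lower rows became 41 at a difference of at least 2 log2 units, 39 at a range of at most 1 and 42 at a range of at most 0.5 of the difference, 111 with no filter on low values, 111 at a floor of 1 FPKM and 43 at a floor of 20 FPKM. They numbered 112 without the recombinant-labelled libraries, 203 without hsromega66, 131 without Hsp90GFP and 37 with rows that share a locus left out. The 179 shared higher rows became 79, 67 and 53 under the first 3 of these settings and 117 with a pseudocount of 5 FPKM. They numbered 285, 383 and 489 without each mutant group in the same order and 104 with shared loci left out.

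The 40 lower contrast calls became 18, 112 and 70 without each mutant group in the same order, and 17 with rows of any group under 1 FPKM left out. The 75 higher calls became 11, 133 and 161, then 42, and 34 at an adjusted p under 0.01. Deposited calls at a q under 0.01 and with Benjamini-Hochberg adjustment within the table were 47 and 41 (from 103) higher and 18 and 16 (from 32) lower in hsromega66, and 33 and 23 (from 73) higher and 29 and 23 (from 47) lower in Hsp90GFP. In the recombinant-labelled libraries they were 359 higher (from 542) and 172 lower (from 313) at a q under 0.01, and 485 lower with no filter on low values. The cause was not tested. Of the 86 named genes, the mean difference moved in 14 with a pseudocount of 0.1 FPKM, 24 with one of 5 FPKM and 2 with values centred on each group's median. No paired analysis was possible because the tables hold 1 value per group and none per library, so no library could be left out either.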
